A study of Mus musculus with 2 samples.

Results

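The genes of the chemokine receptor CXCR2, of the mouse chemokines that bind it and of the platelet chemokine Pf4 were examined in tumour-infiltrating M-MDSCs, monocytic myeloid-derived suppressor cells that restrain T cells. The 7 genes were Cxcl1, Cxcl2, Cxcl3, Cxcl5, Ppbp, Pf4 and Cxcr2. They were chosen by name, and every non-control probe whose RefSeq transcript belonged to one of them was taken. Each gene had 1 probe, printed in 1 spot per array, so that 7 of 39413 probes and 7 of 20653 named genes were described. Both arrays were hybridised with RNA of M-MDSCs from 4T1 tumours, 4T1 being a mouse mammary carcinoma line. The hosts were female BALB/c mice (spelled BABL/c in the labels) that had received 1000000 tumour cells under the skin of the left armpit after a day without food. For 16 days the NSD group was fed chow of 0.4% NaCl with tap water, and the HSD group chow of 4% NaCl with drinking water of 1% NaCl. CD11b+ Ly6-C+ cells were taken from the digested tumours with a magnetic bead kit. Equal numbers of cells were pooled within a diet, and 1 Agilent array was hybridised per diet, so that the mice of a group gave 1 value per probe and a test of the diet could not be made.

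CXC chemokines are small secreted proteins that direct the movement of leukocytes. CXCR2 is a G protein-coupled receptor, abundant on neutrophils and present on some monocytic cells, and signals through Gi proteins, phosphoinositide 3-kinase and Rac. Its mouse ligands, Cxcl1, Cxcl2, Cxcl3, Cxcl5 and the product of Ppbp, carry the sequence Glu-Leu-Arg before the first cysteines, and Pf4 lacks it. Ppbp and Pf4 are stored in the alpha granules of platelets, and Pf4 is also transcribed by some macrophages. Signals are given as processed signals in intensity units. A log2 fold change is the HSD minus the NSD value after each array's 75th percentile (252 units for NSD and 233 for HSD) had been subtracted on the log2 scale. The ± beside it is an SD for a difference between single spots, estimated from other probes of similar brightness that were printed several times on the same array. This SD comes from spots within an array and holds no spread between mice, between labelled samples or between arrays. Multiples of it therefore do not give the precision of a difference between diets.

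The genes moved in opposite directions. Of the 7 genes, 3 (Cxcl1, Cxcl2 and Cxcl3) had at least 1.5-fold more signal on the HSD array, where 9.86% of the 16312 genes with a usable probe did. Another 3 (Cxcl5, Ppbp and Pf4) had at least 1.5-fold less, where 10.3% of all genes did, and Cxcr2 lay between. The 1.5-fold limit is 0.58 on the log2 scale. The median log2 fold change of the 7 genes was 0.51, beside 0.05 over all genes, and the distance from the lowest to the highest was 4.34 on the log2 scale. Because the genes were picked with earlier results of these arrays known, these shares are descriptions. On both arrays each of the 7 probes was well above background, and none was flagged or saturated.

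**Figure D1:**
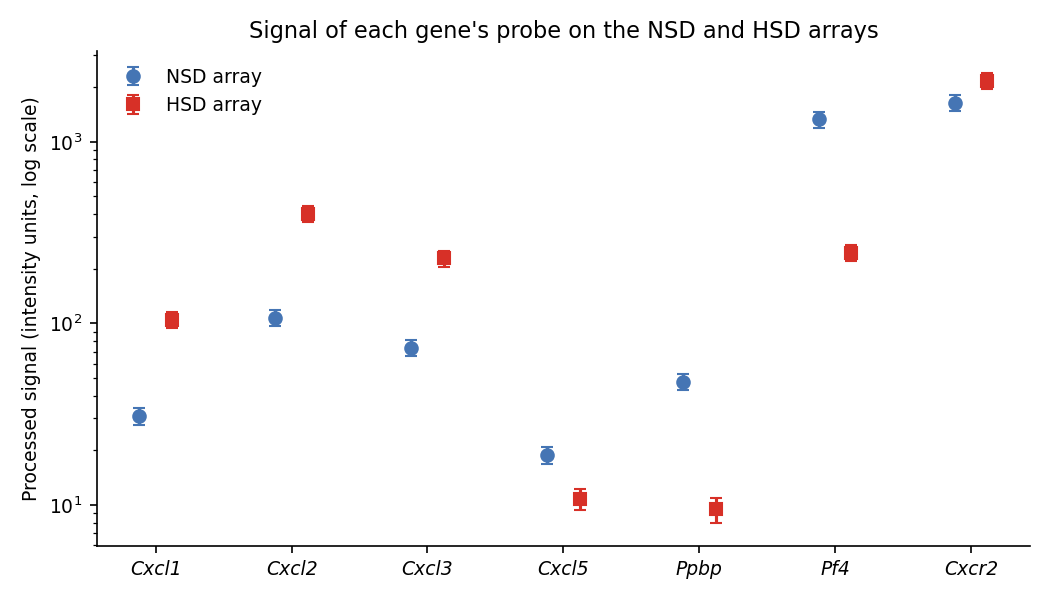
Processed signal (intensity units, log scale) of the probe of each gene on the NSD array (blue circles) and the HSD array (red squares), 1 spot each, with the error that the extraction software assigned to the spot. Cxcl1, Cxcl2, Cxcl3 and Cxcr2 were higher on the HSD array, and Cxcl5, Ppbp and Pf4 were lower.

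Cxcl1, Cxcl2 and Cxcl3 are closely related chemokines that recruit neutrophils and that macrophages and neutrophils make when stimulated. The signal of Cxcl1 was 30.9 ± 3.26 units (software error) with NSD and 105 ± 10.5 with HSD. Cxcl2 had a signal of 108 ± 10.8 with NSD and 402 ± 40.3 with HSD. Cxcl3 had a signal of 73.4 ± 7.42 with NSD and 228 ± 22.8 with HSD. In all 3 the software's error intervals of the diets were far apart. After scaling, the HSD value was 3.67-fold higher for Cxcl1 (log2 fold change 1.88 ± 0.19). It was 4.04-fold higher for Cxcl2 (2.02 ± 0.13) and 3.36-fold higher for Cxcl3 (1.75 ± 0.15). Each difference was between 10.1 and 15.5 times its SD between spots, and larger than the widest gap between any pair of unflagged spots of one probe at that brightness (1.42, 0.88 and 1.07 on the log2 scale). The log2 fold changes of the trio differed from each other by 0.27 at most (Cxcl2 against Cxcl3, SD 0.20), little more than the spread between spots. Among the 15209 genes well above background on both arrays, Cxcl2 had rank 41, Cxcl1 rank 47 and Cxcl3 rank 61 from the highest log2 fold change down. All 3 stayed past 1.5-fold under each of the 9 other ways of processing, with the smallest log2 fold changes (1.03 for Cxcl1, 1.66 for Cxcl2 and 1.21 for Cxcl3) after the normexp background correction. Keeping flagged spots or taking the median of a gene's probes could hardly change any gene of the set, each with a single unflagged probe. The transcripts of the trio resemble each other and probe sequences were not analysed here, so that shared hybridisation was not tested.

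Ppbp and Pf4 are platelet chemokines. Ppbp encodes the precursor that proteases trim to the neutrophil-activating peptide NAP-2, a CXCR2 ligand, and Pf4 (platelet factor 4) binds heparin and other glycosaminoglycans. Pf4 had a signal of 1332 ± 133 units with NSD and 245 ± 24.5 with HSD. Ppbp had a signal of 47.9 ± 4.92 with NSD and 9.46 ± 1.51 with HSD. The HSD array was the lower one for both by a wide margin. After scaling, Pf4 was 5.02-fold lower with HSD (log2 fold change −2.33 ± 0.12) and Ppbp 4.68-fold lower (−2.23 ± 0.26). Their log2 fold changes differed from each other by 0.10 with an SD of 0.29, less than the spots could separate. Both exceeded the widest gap between spots of one probe at their brightness, which was 0.88 for Pf4 and 1.42 for Ppbp. From the lowest log2 fold change up, Pf4 had rank 75 and Ppbp rank 84 of the 15209 genes. The median brightness of the Ppbp spot before background subtraction was 59 units on the NSD array over a local background of 17, and 23.5 on the HSD array over 16. With the normexp correction, whose offset of 50 units exceeds the Ppbp signal on both arrays, its log2 fold change was −0.52 and no longer past 1.5-fold, and that of Pf4 was −2.06.

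Cxcl5, a CXCR2 ligand that epithelial cells and platelets also make, had low signals on both arrays. Its signal was 18.9 ± 2.11 units with NSD and 10.8 ± 1.42 with HSD. It was 1.61-fold lower with HSD (log2 fold change −0.69 ± 0.31), or 2.20 times the SD between spots and within the widest gap of 1.47 between spots of one probe. It had rank 1097 from the lowest. The median spot brightness was 38.5 units over a local background of 15 on the NSD array and 29 over 19.5 on the HSD array. After normexp the value was −0.17, short of 1.5-fold, and under the 8 other settings Cxcl5 remained past it.

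Cxcr2 had a signal of 1643 ± 164 units with NSD and 2168 ± 217 with HSD. The HSD value was 1.43-fold higher after scaling (log2 fold change 0.51 ± 0.14), or 3.71 times the SD between spots and within the widest gap of 1.84, and had rank 1737 from the highest. Its range over the settings was 0.40 to 0.52, below 1.5-fold in each. The receptor lay between the higher and the lower ligands. Its log2 fold change was 1.501 below that of Cxcl2 and 2.84 above that of Pf4, with SDs of 0.19 for both differences.

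**Figure D2:**
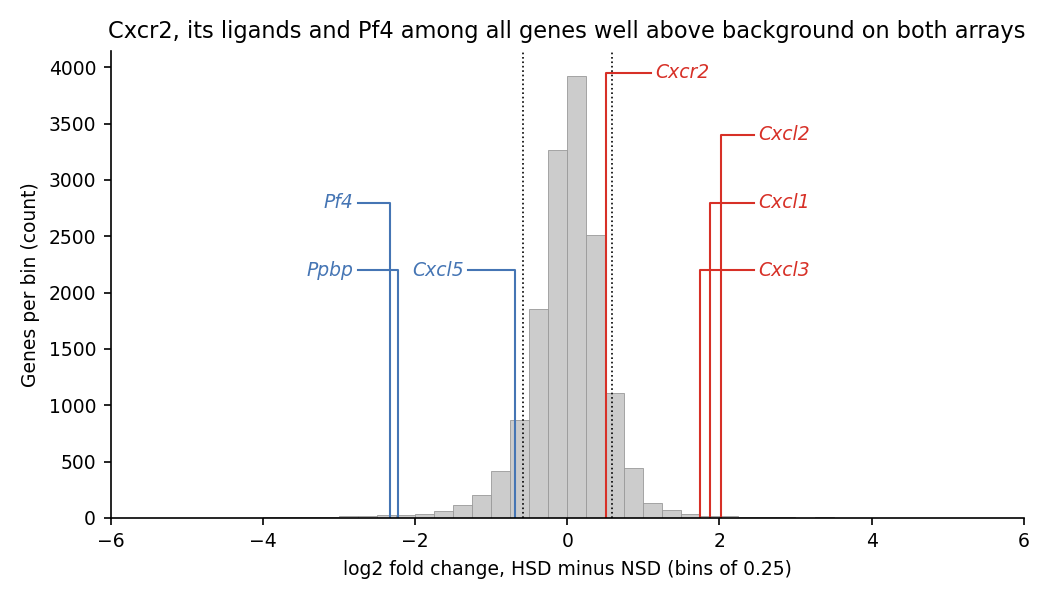
Histogram of the log2 fold change (HSD minus NSD, bins of 0.25) of the 15209 genes well above background on both arrays, with the 7 genes as vertical lines whose heights serve only the labels. Dotted lines mark 1.5-fold, past which lay Cxcl1, Cxcl2 and Cxcl3 on the right and Cxcl5, Ppbp and Pf4 on the left.

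The ligand genes lie side by side on mouse chromosome 5, whereas Cxcr2 lies on chromosome 1. In the RefSeq annotation of GRCm38.p6 their order is Cxcl5, Ppbp, Pf4, Cxcl3, Cxcl15, Cxcl1 and Cxcl2. The 3 genes that were lower in the HSD group were neighbours, and the 3 that were higher followed them, with Cxcl15 among them. Of the lower genes, Cxcl5 differed by less than the widest gap between spots of one probe (1.47), and by −0.17 with the normexp correction. Cxcl15, a lung chemokine, was dim on both arrays, that is, not well above background. Outside the cluster, Rassf6, the nearest protein-coding gene on the side of Cxcl5, had a signal of 25.6 with NSD and 26.4 with HSD (log2 fold change 0.16). Mthfd2l, a mitochondrial folate enzyme gene next to Cxcl2, went from 39.0 to 16.7 units (−1.11), a direction opposite to that of its chemokine neighbour. Epgn, an epidermal growth factor family gene beyond it, went from 34.4 to 43.998 units (0.47).

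**Figure D3:**
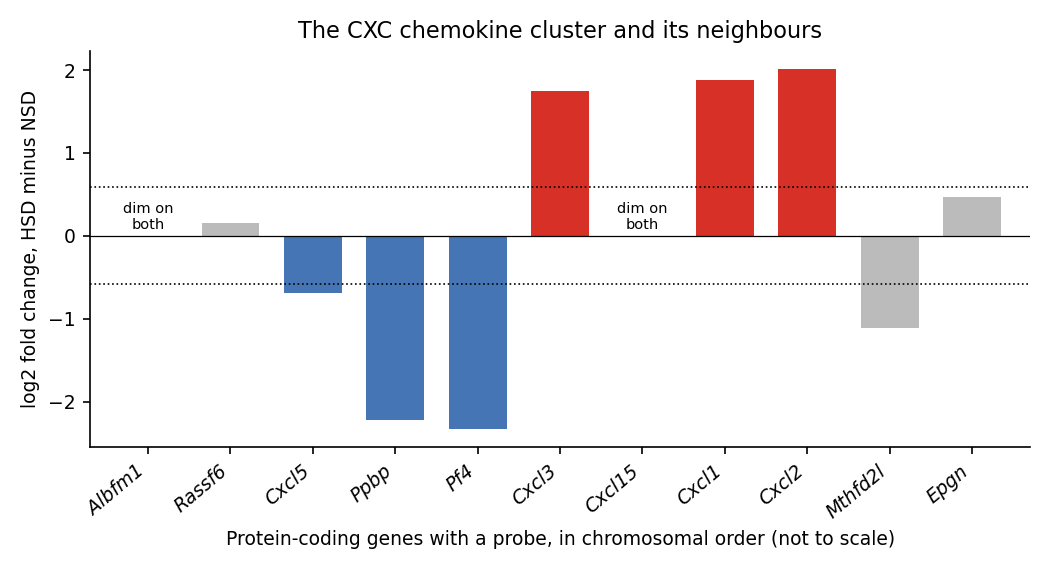
Log2 fold change (HSD minus NSD) of the protein-coding genes with a probe in and around the CXC chemokine cluster of chromosome 5, in annotated order and not to scale, with chemokines of the 7-gene set in colour and neighbours in grey. Dotted lines mark 1.5-fold, and the sign changes once within the set, between Pf4 (−2.33) and Cxcl3 (1.75). The difference of Cxcl5 lay within the widest gap between spots of one probe.

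Promoter sequences are shown because the set divided into higher and lower genes that are neighbours. RefSeq windows of GRCm38.p6, a C57BL/6J assembly, were found for 6 of the 7 genes (all but Cxcl5). Each window held 250 bases before and 50 after the annotated start, and the last 120 bases before the start are printed 5′ to 3′. Capitals mark the NF-κB motif GGANTTTCC, the TATA box TATAAA and the octamer ATAAAAGG. The NF-κB motif was searched on both strands and the other two on the strand of the gene. The octamer was added after the sequences had been seen, and in Cxcl3 it overlaps the TATA box. The first 3 promoters belong to genes with more signal in the HSD group and the last 2 to genes with less. All lie on the plus strand, at chr5:90891125-90891244 (Cxcl1), chr5:90903779-90903898 (Cxcl2), chr5:90785981-90786100 (Cxcl3), chr5:90768398-90768517 (Ppbp) and chr5:90772315-90772434 (Pf4).
Cxcl1: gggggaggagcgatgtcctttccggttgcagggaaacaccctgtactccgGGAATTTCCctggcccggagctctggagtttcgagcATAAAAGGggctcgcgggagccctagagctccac
Cxcl2: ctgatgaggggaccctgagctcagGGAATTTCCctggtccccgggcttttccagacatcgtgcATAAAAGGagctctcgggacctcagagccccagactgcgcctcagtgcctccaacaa
Cxcl3: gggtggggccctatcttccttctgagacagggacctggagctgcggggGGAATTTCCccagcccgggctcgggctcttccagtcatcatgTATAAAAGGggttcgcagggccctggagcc
Ppbp: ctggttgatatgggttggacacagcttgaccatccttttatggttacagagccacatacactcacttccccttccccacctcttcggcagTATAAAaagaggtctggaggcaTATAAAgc
Pf4: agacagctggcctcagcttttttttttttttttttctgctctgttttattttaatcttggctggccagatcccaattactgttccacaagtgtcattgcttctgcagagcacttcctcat

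The NF-κB motif began 70 bases before the start of Cxcl1, 96 before that of Cxcl2 and 72 before that of Cxcl3, in each case as GGAATTTCC. It was in none of the Ppbp, Pf4 and Cxcr2 windows, and Cxcl5, the other lower gene, had no window to search. Of the 32851 windows of that length, 1.25% held it. The octamer followed it in the same 3 promoters, starting 34, 57 and 29 bases before the start, and 1.15% of all windows held it. Over the 120 bases, Cxcl1 and Cxcl3 had 63.9% identical positions in a global alignment, Cxcl1 and Cxcl2 53.4% and Cxcl2 and Cxcl3 52.0%. Ppbp had TATAAA at 30 and at 8 bases before its start, a motif found in 8.32% of windows. The core TGGAAA of the tonicity element, which NFAT5 binds in cells under salt stress, was found on the opposite strand in Cxcl2 alone, 73 bases before the start, and 21.4% of windows held it. An AP-1 motif (TGANTCA, in 7.81% of windows) lay in Ppbp, 204 bases before the start. A GATA motif (AGATAA, in 11.2%) lay in Pf4, between bases 37 and 42 after the start. The last 3 motifs were searched on both strands. These matches describe letters in a window, and no binding was measured. Cxcl1, Cxcl2 and Cxcl3 are closely related genes, so that their shared motifs are not independent matches. The shares of windows give no test of enrichment.

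The inflammatory genes that macrophages and neutrophils induce together with Cxcl1 and Cxcl2, many of them NF-κB targets, went both ways. Of 23 measured genes, 8 were higher and 4 lower past 1.5-fold (9.86% and 10.3% of all genes), and 11 lay between. A log2 fold change above 0 was found for 18 of the 23, and for 54.2% of all genes with a usable probe. With the normexp correction 8 of the 12 calls remained. Their median log2 fold change was 0.36, beside 0.05 for all genes. Nfkbia, which encodes the inhibitor that NF-κB induces against itself, had a signal of 17032 units with NSD and 28833 with HSD (log2 fold change 0.87). Ier3, an immediate-early survival gene, had 848 and 2364 units (1.59), and the chemokine gene Ccl4 had 5935 and 8661 (0.66). The cytokine gene Il1b had 15464 and 17986 units (0.33), short of 1.5-fold. Atf3, a stress-induced repressor, was lower, with 587 and 217 units (−1.32).

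The G proteins, kinases and Rac regulators through which CXCR2 signals were shifted little. Of 22 measured genes, 2 were higher and none was lower past 1.5-fold, a share near the 9.86% of all genes. The log2 fold change was above 0 for 18 of them, beside 54.2% of all genes, and the median log2 fold change was 0.25. Rac2, the Rac of blood cells, had 22195 units with NSD and 28778 with HSD (log2 fold change 0.49). Gnb1, a G protein β subunit, had 3826 and 5653 units (0.68), while its other probe differed by 0.02. Grk6, a receptor kinase gene named for its disagreeing probes, had 0.42 with the brighter probe and −1.33 with the dimmer one. Gnb2, another β subunit, had 24317 and 25559 units (0.19). Arrb1, an arrestin gene whose product helps to desensitise such receptors, had 2319 and 1683 units (−0.35).

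Of the other receptors of CXC chemokines, 6 of 7 were measurable, with 1 higher and 1 lower past 1.5-fold. Over all genes the shares were 9.86% and 10.3%. The median log2 fold change of these receptors was −0.14. Cxcr1, the closest relative of Cxcr2, had a signal of 76.4 units with NSD and 218 with HSD (log2 fold change 1.63). Cxcr3, the receptor of Cxcl9 and Cxcl10, had 86.5 and 47.9 units (−0.74, or −0.27 with the normexp correction). Cxcr4, the receptor of Cxcl12, had 2777 and 2122 units (−0.27), and Cxcr5, which B cells use, had 285 and 363 (0.46). Ackr3 was dim on both arrays.

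The CXC, CX3C and XC ligands outside the set gave 7 measurable genes of 11, with 2 higher and 3 lower past 1.5-fold. Over all genes 9.86% were higher and 10.3% lower. The median log2 fold change of these ligands was −0.45. The interferon-induced Cxcl10 had a signal of 418 units with NSD and 213 with HSD (log2 fold change −0.86). Cxcl14 had 72.8 and 39.4 units (−0.77), and Cxcl16, a membrane-bound ligand of Cxcr6, had 384 and 289 (−0.29). Cxcl9, also induced by interferon, was near the limit of detection with 6.74 and 12.95 units (1.06), and a second probe was dim. With the normexp correction 1 of the 5 calls remained (Cxcl10, −0.66) and the median of this list was −0.02.

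Of 10 genes for the storage, matrix binding and proteolysis of these chemokines, 1 was higher and 2 were lower past 1.5-fold. These counts are near the shares of all genes, 9.86% and 10.3%. The median log2 fold change of this list, 0.04, was below 0 in 5 of the settings. Serglycin (Srgn), the granule proteoglycan that holds Pf4, had 7965 units with NSD and 9068 with HSD (log2 fold change 0.30). Vcan, a matrix proteoglycan, had 374 and 550 units (0.67, or 0.56 with the normexp correction, short of 1.5-fold), and Mmp9, a metalloproteinase that trims CXC chemokines, had 9522 and 11539 (0.39). Mmp8 differed by −0.06. Thbs1 encodes thrombospondin 1, which platelet alpha granules hold beside Pf4 and which macrophages also make. It had 600 units with NSD and 79.7 with HSD (−2.80). Ctsg, a neutrophil protease that converts Ppbp products, was named after its values were seen, with 1733 and 807 units (−0.99).

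**Figure D4:**
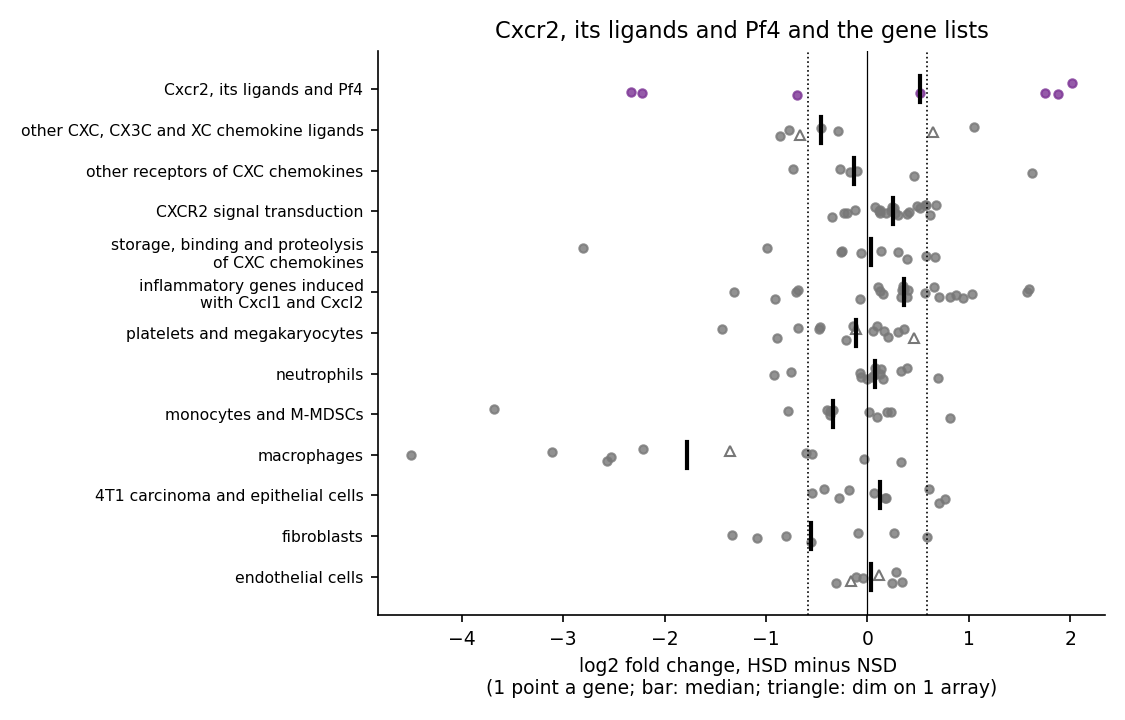
Log2 fold change (HSD minus NSD) of the 7 genes (top, purple) and of each gene in 12 lists (grey), with 1 point per measurable gene and a black bar at the median. Triangles are lower bounds for genes dim on 1 array, dotted lines mark 1.5-fold, and the macrophage list has the lowest median (−1.78).

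Since Ppbp and Pf4 are known from platelets and Pf4 also from macrophages, markers of both were set beside them. Of 15 measurable platelet and megakaryocyte markers, 3 were lower and none was higher past 1.5-fold, beside 10.3% and 9.86% of all genes. The median log2 fold change of the markers was −0.12. With the normexp correction none of the 3 remained past 1.5-fold and the median was 0.05. The summed signal of the list, including Gp5, which was dim on both arrays, was 1380 units with NSD and 1319 with HSD. It was 1428 with HSD after scaling, so that its direction depended on the scaling. Gp1ba, the von Willebrand factor receptor subunit, had 22.6 and 7.73 units (−1.44, or −0.16 with the normexp correction). Its partner Gp1bb had 11.99 and 14.2 units (0.36). Itgb3 had 585 and 621 units (0.20) and Vwf 249 and 239 (0.05), and both are shared with endothelial cells, while Clec1b had 187 and 185 (0.10). A second, dimmer probe of Itgb3 differed by 2.20. The signs of the differences of Vwf and Clec1b changed under 1 other setting each. Itga2b, the platelet integrin αIIb, was named after its values were seen and had 13.9 and 6.94 units (−0.89, or −0.05 with the normexp correction).

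Most macrophage markers were lower on the HSD array. With 1 array per diet, a change shared with Pf4 or Ppbp cannot be judged. Of 10 measurable macrophage markers, 7 were lower and none was higher past 1.5-fold in the HSD group, beside 10.3% and 9.86% of all genes. The median log2 fold change of the markers was −1.78. With the normexp correction 6 of the 7 remained past 1.5-fold and the median was −0.62. The summed signal of the list, with Cd163 included, was 17746 units with NSD and 9506 with HSD, or 10290 after scaling. Mrc1, the mannose receptor, had 134 units with NSD and 5.49 with HSD (log2 fold change −4.50, or −1.56 with the normexp correction). Its HSD signal was close to the lowest one called well above background on that array (4.39). Trem2, a lipid receptor, had 3348 and 669 units (−2.21). Apoe had 7119 and 4337 units (−0.60), and Adgre1, which encodes F4/80, had 6723 and 4252 (−0.55). C1qb went the other way, with 50.4 and 58.4 units (0.33), and Cd163 was dim on both arrays. The part of platelets and macrophages in the results for Ppbp and Pf4 was not tested, and in pooled RNA fewer cells of a type and less RNA per cell cannot be told apart.

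Markers of the cells' label were set beside it, but they cannot settle its purity, because neutrophil markers were bright as well. Ly6g, low in monocytic suppressor cells, and Ly6c2 matched no probe. Itgam (CD11b) had 31564 units with NSD and 31043 with HSD (log2 fold change 0.09), and Ly6c1 had 51811 and 48478 (0.02), with a sign that changed under 2 and 6 of the settings. A second probe of Ly6c1 differed by −0.42. Of 11 measured monocyte and M-MDSC markers, 1 was higher and 2 were lower past 1.5-fold, beside 9.86% and 10.3% of all genes. The median log2 fold change was −0.34, and the summed signal was 132008 units with NSD and 118045 with HSD, or 127780 after scaling. Dimmer probes of Ms4a4c (−0.83 and −1.36, beside −0.34 for the brightest) and F13a1 (−0.61, beside −0.37) were past 1.5-fold lower. Cd14, which is also in the inflammatory list, had 2337 and 3804 units (0.82). Fcgr1, the high-affinity IgG receptor, had 305 and 21.9 units (−3.68, or −2.10 with the normexp correction). The other lower marker, Ccr2, was named after its values were seen. It had 259 and 139 units (−0.78, or −0.69 with the normexp correction). Of the 11 markers, 5 had a log2 fold change above 0 and 6 below.

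Genes of neutrophils, the cells with most CXCR2, were bright on both arrays. Of 14 measured neutrophil markers, 1 was higher and 2 were lower past 1.5-fold, beside 9.86% and 10.3% of all genes. The median log2 fold change was 0.07 and fell below 0 in 4 of the settings, and the summed signal was 451289 units with NSD and 454684 with HSD, or 492181 after scaling. S100a8 had 57914 and 56478 units (log2 fold change 0.08), and Camp, a granule peptide gene, had 61817 and 59920 (0.07), each with a changed sign in 4 settings. Lcn2 had 53909 and 62682 units (0.33). Mrgpra2b had 13367 and 20039 units (0.70), and Mpo, an early granule enzyme gene, had 3536 and 1723 (−0.92). The part of neutrophils in the result for Cxcr2 was not tested.

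Markers of other tumour cells were low. The 10 measurable epithelial markers of 4T1 cells had a median log2 fold change of 0.12. Of the 10, 3 were higher and none was lower past 1.5-fold, beside 9.86% and 10.3% of all genes. None of the 3 remained past it with the normexp correction. With Krt19, which was dim on both arrays, the summed signal of the list was 305 units with NSD and 272 with HSD (294 after scaling). Krt18 had the largest rise, with 15.9 and 24.996 units (0.76, or 0.34 with the normexp correction). The 3 brightest markers were lower, all short of 1.5-fold. Esrp1 had 97.4 and 79.4 units (−0.18), Krt5 46.6 and 29.5 (−0.54) and Cdh1 45.0 and 30.8 (−0.43). Of the 10 epithelial markers, 6 had a log2 fold change above 0 and 4 below. Of 7 measurable fibroblast markers, 1 was higher and 3 were lower past 1.5-fold, beside 9.86% and 10.3% of all genes. The fibroblast median was −0.55. Lum, Pdgfra and Postn were dim on both arrays, and with them the summed signals were 393 and 351 units (380 with HSD after scaling). With the normexp correction none of the 4 calls remained and the median was −0.03. Fap had 58.7 and 21.4 units (−1.34, or −0.58 with that correction). None of 8 measurable endothelial markers reached 1.5-fold with its brightest probe, but a second probe of Kdr, the VEGF receptor, differed by −2.49 beside 0.28 for the brightest. The endothelial median of 0.04 was below 0 in 5 of the settings. Tie1 and Emcn were dim on both arrays, and with them the summed signals were 333 and 354 units (383 with HSD after scaling). The part of these cells in the results for Cxcl1, Cxcl2, Cxcl3 and Cxcl5 was not tested.

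Scaling moved the balance of higher and lower calls over all genes. Of the genes past 1.5-fold, 48.9% were higher with the 75th percentile, 38.5% with cyclic loess and 32.7% with no scaling, and the median log2 fold change of all genes went from 0.05 to −0.02 and −0.07. Under the scaling alternatives the 3 higher and 3 lower genes of the set remained past 1.5-fold in their own direction and Cxcr2 remained below it. The calls of Ppbp and Cxcl5 ended only with the normexp alternative, which starts from the median spot brightness in place of the processed signal, corrects the background otherwise and adds an offset, so these changes cannot be told apart.

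**Figure D5:**
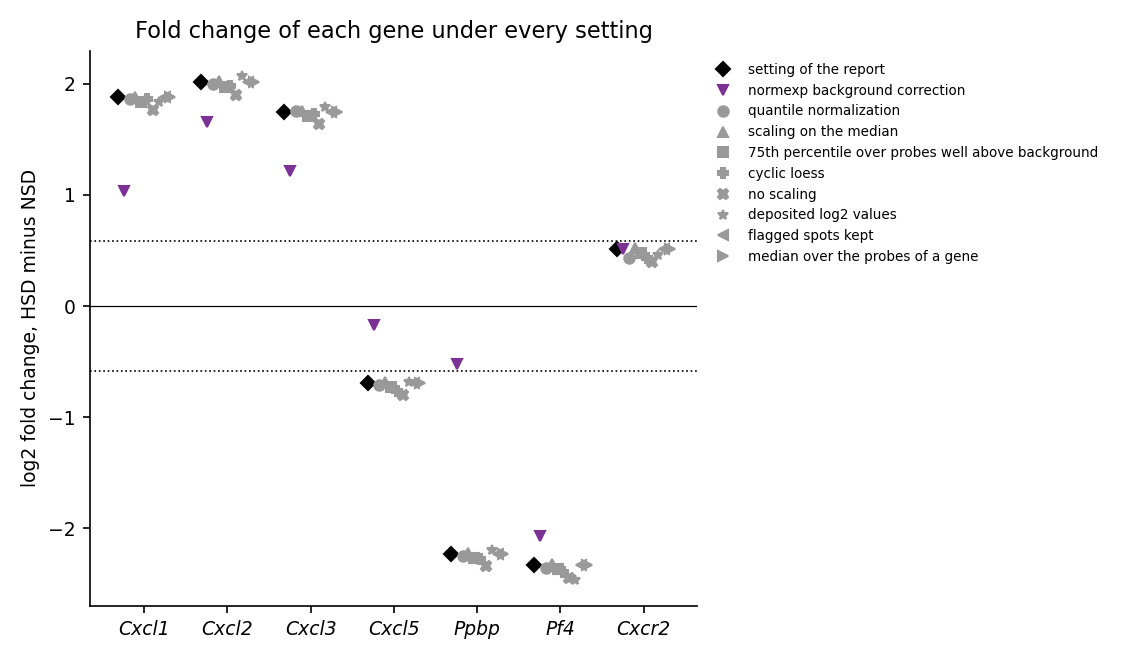
Log2 fold change (HSD minus NSD) of each gene under the setting used here (black diamonds), the normexp background correction (purple triangles) and 8 other alternatives (grey symbols, named in the legend). Dotted lines mark 1.5-fold, and the normexp correction alone brought Ppbp (−0.52) and Cxcl5 (−0.17) inside them.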

How the data were processed

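RNA of tumour M-MDSCs pooled within a diet was labelled with Cy3 and hybridised to 1 Agilent Mouse GE v2 (4 × 44 k) array for NSD and 1 for HSD, on one slide. The authors deposited the scanner intensity of every spot, with the processed signal corrected for background and spatial trends by Agilent Feature Extraction 11.0.1.1 and not normalised between arrays. They also deposited log2 values normalised in GeneSpring by a method not given in the sources used here, whose sorted columns differed by 0.052 at most, and these were used as an alternative. Control spots and spots flagged as outliers (162 and 179) were left out. Log2 processed signals were averaged over the spots of a probe and then shifted by the array's 75th percentile. RefSeq identifiers (GRCm38.p6) named 27223 of 39413 probes (69.1%), and the brightest probe of each gene was used.

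A probe was well above background where at least 50% of its spots were. For a gene dim on 1 array, a lower bound was taken against its own signal there or, if higher, the dimmest signal that counted as well above background (4.61 units for NSD and 4.39 for HSD), and a gene dim on both was not usable. The SD between spots was pooled over probes with several spots (317 in all) within 1 log2 unit of the gene's signal on that array. No test was run with 1 array per diet, the number of arrays limits the precision, and calls rest on 1.5-fold alone. The genes of the set and of the 12 lists were chosen with earlier results of these data known. Of each list, the 3 brightest genes and those with the highest and the lowest log2 fold change were named, all from genes that neither array had dim, except 2 that are not reported here. Of the fibroblast and endothelial lists, only Fap and Kdr were given. The lists matched no probe for Cxcl11, Ccl3, Ly6g, Ly6c2 and Cd68, and Mmp8 and Mmp9 stand in both the storage and the neutrophil list. Python 3.11.15, numpy 2.4.6, pandas 2.3.3, Biopython 1.88, matplotlib 3.10.9, R 4.3.3 and limma 3.58.1 were used. A comparison of protein sequences was planned and not run.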

Additional observations from a re-analysis of the deposited data

How the results depend on the processing

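No paired analysis was possible because each diet has 1 array. Alternatives were the normexp correction (on median spot signals, offset 50), quantile normalisation, scaling on the median, cyclic loess, the 75th percentile over detected probes, no scaling, the deposited log2 values, flagged spots kept and, for genes with several probes, their median. The counts were also taken with a 2-fold limit, with only genes well above background on both arrays, and with no filter. No direction was reversed for any of the 7 genes, and 79 of 87 alternative values for them moved by less than the SD between spots or, for counts, stayed within 1.5 times. The 8 others were the normexp values of Cxcl1 (1.03), Cxcl2 (1.66), Cxcl3 (1.21), Cxcl5 (−0.17), Ppbp (−0.52) and Pf4 (−2.06), the deposited value of Pf4 (−2.47), and the normexp count of genes lower past 1.5-fold, which was 1 in place of 3. The count of higher genes was 3 under every alternative. Some alternatives could hardly move these values and say little about robustness. Each of the 7 genes had a single unflagged probe that was well above background on both arrays. Keeping flagged spots, the median over probes and, for the counts, the other filters on dim probes therefore left them nearly unchanged. Over all genes, 625 were higher and 655 lower with the normexp correction, against 1608 and 1682. The normexp offset adds the same amount to every signal and so shrinks the ratios of dim probes. Of 84 alternative values of the list medians, 15 changed sign, all in the storage, platelet, neutrophil and endothelial lists. The signals of Cxcl5 on both arrays and of Ppbp on the HSD array were a few times the lowest signal called well above background, which limits how precisely their ratios are known.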
